A study of Rattus norvegicus with 12 samples.

Results

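Expression of 7 genes of the antioxidant defence was followed in rat hearts: Sod1 (ENSRNOG00000002115), Sod2 (ENSRNOG00000019048), Cat (ENSRNOG00000008364), Hmox1 (ENSRNOG00000014117), Gclc (ENSRNOG00000006302), Nqo1 (ENSRNOG00000012772) and Nfe2l2 (ENSRNOG00000001548). They form a list of Ensembl gene IDs drawn up with earlier results of these data in view, although the list sets no threshold on a value, and all 7 were found among the 19955 genes of the deposited table. Hearts came from wild-type Sprague Dawley rats in 3 groups. Sham rats had surgery without an infarct, MI rats had a myocardial infarction, and Patch rats had an infarct with a cardiac patch sutured to its edge. The labels give 4 samples a group. The table columns named for these groups numbered 2 for sham, 4 for MI and 4 for Patch, with names starting in P read as Patch. A further 2 columns, with names starting in ctrl, match no sample label and were not used here. No source says whether these hold the remaining sham samples, so each comparison with sham rests on 2 libraries. The age, sex, time after surgery, patch material and distance of each sample from the infarct were not given in the sources used here, nor was it stated whether each library came from its own animal, so p-values measure only the spread between these libraries. The P and MI library names are kept below as the table gives them (MI1, MI2, MI162, MI165, P695, P697, P699, P985).

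Superoxide, a by-product of mitochondrial respiration and of oxidases, is converted to hydrogen peroxide by superoxide dismutases, and catalase and glutathione-dependent enzymes then remove the peroxide. Heart muscle is rich in mitochondria and depends on these enzymes. Nrf2, the transcription factor encoded by Nfe2l2, is held in the cytoplasm by Keap1 and degraded in unstressed cells. Under oxidative stress it enters the nucleus and binds antioxidant response elements of genes such as Hmox1, Nqo1 and Gclc. Its activity is set largely at the protein level, which an RNA measurement does not show.

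Promoters of 6 of the 7 genes were matched by symbol in a RefSeq table on the build GRCr8, which is not the build of the expression data. The promoter of Hmox1 was not printed. The windows span 250 bases before and 50 bases after the annotated start, and 4 are shown. Cat and Sod2 are the pair whose levels moved most alike, Sod1 is the dismutase that fell with them, and Nfe2l2 encodes the factor itself. Capitals mark matches, on either strand, to the antioxidant response element core TGACNNNGC, the TATA box TATAAA, the CCAAT box CCAAT and the GC box GGGCGG.
Cat, GRCr8 chr3:110329477-110329776, minus strand: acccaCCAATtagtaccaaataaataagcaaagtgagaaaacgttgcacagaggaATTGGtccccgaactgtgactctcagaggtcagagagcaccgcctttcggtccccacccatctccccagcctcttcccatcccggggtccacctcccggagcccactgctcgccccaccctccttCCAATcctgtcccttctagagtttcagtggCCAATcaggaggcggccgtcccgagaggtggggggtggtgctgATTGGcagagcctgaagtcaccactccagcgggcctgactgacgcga
Sod2, GRCr8 chr1:50050119-50050418, minus strand: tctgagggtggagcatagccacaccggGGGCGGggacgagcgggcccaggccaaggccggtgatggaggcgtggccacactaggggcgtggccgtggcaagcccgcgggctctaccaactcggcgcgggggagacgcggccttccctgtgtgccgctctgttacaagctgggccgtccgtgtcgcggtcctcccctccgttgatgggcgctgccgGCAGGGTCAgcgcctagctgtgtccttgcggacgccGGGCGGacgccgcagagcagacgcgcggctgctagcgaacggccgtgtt
Sod1, GRCr8 chr11:42942573-42942872, plus strand: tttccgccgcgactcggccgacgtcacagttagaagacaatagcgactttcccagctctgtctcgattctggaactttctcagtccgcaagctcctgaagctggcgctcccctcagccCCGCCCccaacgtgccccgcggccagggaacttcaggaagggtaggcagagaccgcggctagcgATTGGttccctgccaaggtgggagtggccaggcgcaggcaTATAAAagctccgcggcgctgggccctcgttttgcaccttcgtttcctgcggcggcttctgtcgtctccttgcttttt
Nfe2l2, GRCr8 chr3:81028950-81029249, minus strand: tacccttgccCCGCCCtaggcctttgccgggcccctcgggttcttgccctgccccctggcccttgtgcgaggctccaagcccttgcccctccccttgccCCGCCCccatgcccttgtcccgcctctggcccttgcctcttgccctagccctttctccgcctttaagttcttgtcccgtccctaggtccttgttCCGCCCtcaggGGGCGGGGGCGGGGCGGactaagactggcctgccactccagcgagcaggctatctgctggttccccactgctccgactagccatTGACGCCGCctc
The core TGACNNNGC matched in 2 of the 6 windows, against 12.1% of all 33469 promoters of the same length. In Sod2 the match began at position -35 on the opposite strand, and in Nfe2l2 at position 39 downstream of the start. Cat held 5 CCAAT matches and no GC box, while Sod2 held 2 GC boxes and no CCAAT. Nfe2l2 held 6 GC boxes, 2 of which share 1 base. Sod1 held a TATA match beginning at position -28. CCAAT was present in 37.5% of all promoters, GGGCGG in 33.1% and TATAAA in 14.2%. The Gclc and Nqo1 windows, not printed, held no match to TGACNNNGC. A match describes letters in a window, and elements outside it were not searched.

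The values are a normalized signal that is not divided by transcript length, so levels were compared between groups within a gene and not between genes. The MI libraries were the deepest, with 12932419 to 14110864 recovered reads, where sham had 12181733 to 12220833 and Patch had 11420710 to 12565137. Summed over genes, the signal was 11142466 to 12018371 in MI, below the 13431849 to 13568660 of sham and the 12519929 to 13553933 of Patch. MI2 stood apart, with 5474 genes at 0 against 2400 to 3335 in the other 9 libraries. It also had fewer genes with 1 read, 169 against 632 to 979. The 7 genes were well covered, with at least 227 reads in every library, and all 7 passed the filter on low signal. Cell type markers were not analysed here because the table gives no gene symbols, so the labelled tissue was not checked and the part of cell composition in these results was not tested.

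After infarction, the 3 enzymes that handle superoxide and hydrogen peroxide fell while Hmox1 rose. In limma, 4 of the 7 genes differed between MI and sham at an adjusted p under 0.05, of which 3 were lower and 1 higher. Over all 17091 genes tested, 15.4% were called, 8.12% as lower and 7.3% as higher. The median absolute log2 difference was 0.83 over the 7 genes and 0.52 over all genes tested. In RNA from heart tissue, fewer cells of a type and less RNA per cell cannot be told apart.

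Sod1 encodes the copper-zinc superoxide dismutase of the cytosol. Its signal was 5698 and 5703 in the sham libraries, and 3245, 3465, 1909.6 and 2180.1 in MI1, MI2, MI162 and MI165. Every MI library lay below both sham libraries, with MI162 and MI165 lowest. The mean fell from 5700.4 ± 3.36 (SD, n = 2) to 2699.7 ± 769 (SD, n = 4), which is -1.12 in log2 (SE 0.25, limma adjusted p 0.0171). The spread of the sham pair, 0.059% of its mean, was below the counting error of 1.39% at that depth.

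Sod2 encodes the manganese superoxide dismutase of the mitochondrial matrix. Its signal was 8758 and 8228 in sham, and 3200.4, 6425, 3562 and 4366 in MI1, MI2, MI162 and MI165. The groups did not overlap, but MI2 kept 75.7% of the sham mean where the other 3 MI libraries had 37.7 to 51.4%. The mean fell from 8493 ± 375 (SD, n = 2) to 4388 ± 1443 (SD, n = 4), or by -1.01 in log2 (SE 0.26, limma adjusted p 0.0271).

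Cat encodes catalase, the peroxisomal enzyme that splits hydrogen peroxide. It read 5126 and 4446 in sham, and 2003, 3901, 2153 and 3050.3 in MI1, MI2, MI162 and MI165. MI2 was again the MI library nearest to sham, at 81.5% of the sham mean. Cat fell from 4786 ± 481 (SD, n = 2) to 2777 ± 881 (SD, n = 4), which is -0.83 in log2 (SE 0.24, limma adjusted p 0.0416).

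Hmox1 encodes heme oxygenase 1, which breaks heme down to biliverdin, iron and carbon monoxide. Its signal was 278 and 250.3 in sham, and 619, 637, 929 and 598 in MI1, MI2, MI162 and MI165. Every MI library was at 226% of the sham mean or more, and MI162 reached 352%. The mean rose from 264 ± 19.3 (SD, n = 2) to 696 ± 156 (SD, n = 4), which is 1.37 in log2 (SE 0.28, limma adjusted p 0.0128). Unlike Cat and Sod2, Hmox1 in MI2 lay among the other MI libraries.

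Gclc, Nqo1 and Nfe2l2 did not pass the adjusted threshold. Gclc encodes the catalytic subunit of glutamate-cysteine ligase, which catalyses the rate-limiting step of glutathione synthesis. Its signal was 268 and 343 in sham and 549, 337, 517 and 552 in MI1, MI2, MI162 and MI165, so that MI2 alone lay within the sham range. The log2 difference was 0.66 (SE 0.21, limma adjusted p 0.0551). Without MI2 it was 0.83 and passed (limma adjusted p 0.00276), and the 3 remaining MI libraries then all lay above sham.

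Nqo1 encodes a quinone reductase that is a classical Nrf2 target. It stood at 349 and 484 in sham and at 322, 284, 223 and 283 in MI1, MI2, MI162 and MI165, so that each MI value was below both sham values. The log2 difference was -0.57 (SE 0.21, limma adjusted p 0.0934), opposite in sign to those of Hmox1 and Gclc. The sham libraries moved it in opposite directions, to -0.81 without sham1 (limma adjusted p 0.144) and to -0.34 without sham2 (limma adjusted p 0.537). It was -0.33 with each library rescaled to the same total signal (limma adjusted p 0.327), and -0.64 with limma's sample weights, where it passed (adjusted p 0.0445). The ratio of Nqo1 to Gclc within a library, set to 1 at the sham mean, was 0.437 ± 0.131 over the MI libraries (SD, n = 4) and 0.837 ± 0.154 over the Patch libraries (SD, n = 4). The sham libraries themselves lay at 0.960 and 1.04. A ratio within a library does not depend on the scaling of that library.

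Nfe2l2 had the narrowest range of the 7 genes over the 10 libraries, 0.48 on the log2 scale, where Hmox1 spanned 1.89. Its signal was 1041 and 1194 in sham and 1448, 1205, 1457 and 1388 in MI1, MI2, MI162 and MI165. The MI values did not overlap with sham, although MI2 exceeded sham2 by little. The log2 difference was 0.30 (SE 0.13, limma adjusted p 0.156). Without MI2 it was 0.36 with a limma adjusted p of 0.0494. Nfe2l2 did not pass in edgeR without MI2 (0.37, adjusted p 0.0561) or in limma without MI2 and P699 (0.36, adjusted p 0.0586). With all 10 libraries it passed with limma's sample weights (0.34, adjusted p 0.0405). It also passed with each library rescaled to the same total signal (0.54, limma adjusted p 0.0319).

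**Figure D1:**
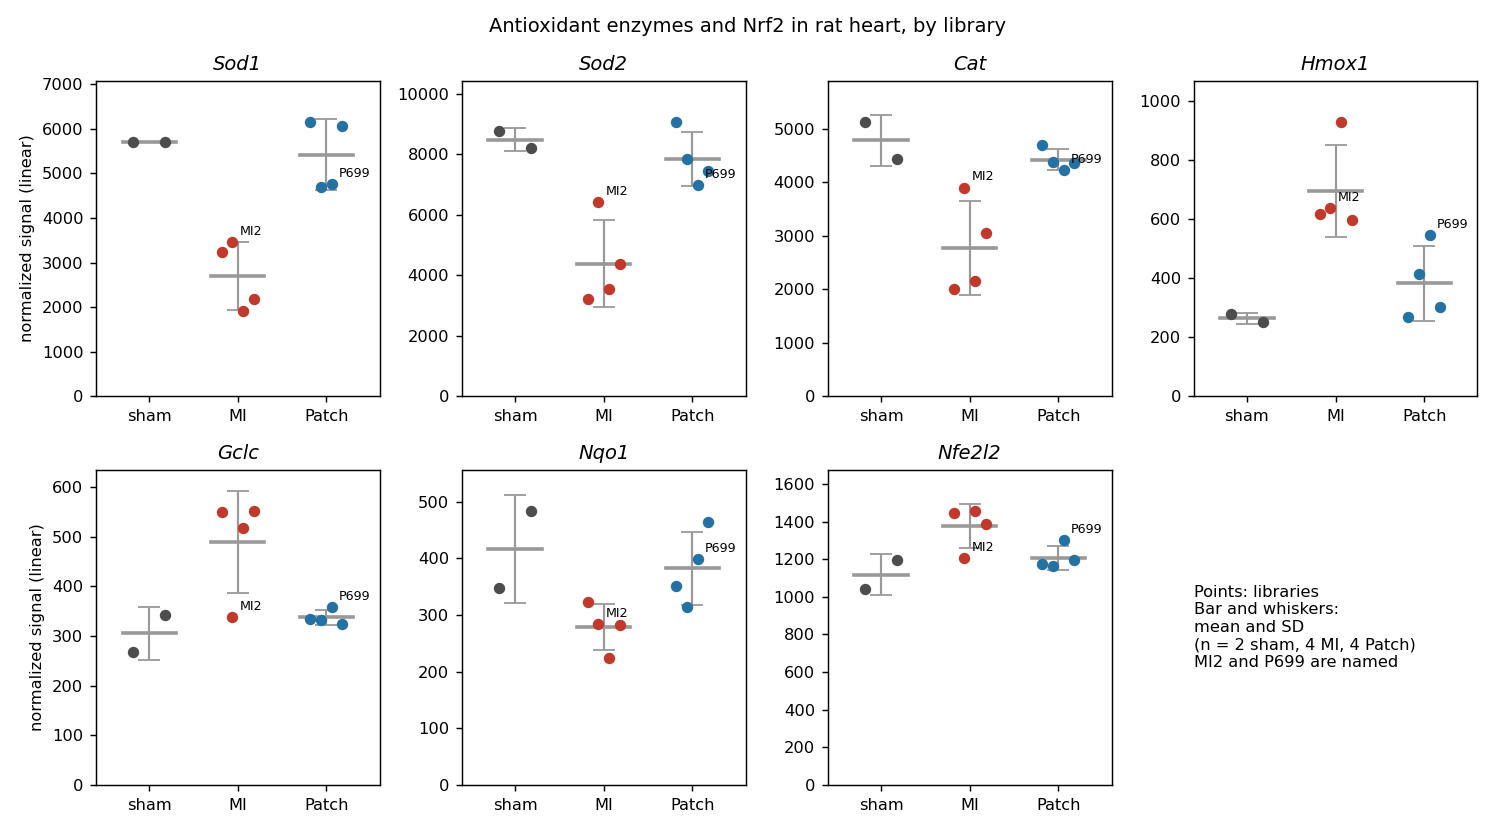
Normalized signal (linear axis) of each gene in the sham, MI and Patch libraries, with points for libraries and bars and whiskers for mean and SD (n = 2, 4 and 4). Sod1, Sod2 and Cat were lower in the MI libraries than in every sham and Patch library, and Hmox1 was higher, while MI2 lay within the range of the sham and Patch libraries for Gclc.

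Counted without regard to p, MI and sham did not overlap in 6 of the 7 genes, 4 lower and 2 higher in MI. Such separation was common, since 35.8% of all genes tested showed it, 18.6% lower and 17.1% higher. With 2 sham libraries, the calls depended on each of them, and so did nearly all calls over the whole table. Leaving out sham1 or sham2 ended all 4 calls, in fits where the lone sham library was assumed to vary like the other groups. The log2 differences without sham1 and without sham2 were 1.45 and 1.30 for Hmox1 and -1.12 in both for Sod1. They were -0.96 and -1.05 for Sod2, and -0.73 and -0.94 for Cat. Cat also lost its call without MI1 (limma adjusted p 0.0650), MI162 (0.0903), P695 (0.0608), P697 (0.0640), P699 (0.0558) or P985 (0.0660). Sod2 lost its call without MI162 (limma adjusted p 0.0622). With only the MI and sham libraries in the fit, Hmox1 alone kept its call, while Sod1 (0.0677), Sod2 (0.103) and Cat (0.143) lost theirs, and Cat also missed the threshold in edgeR (adjusted p 0.0601) and in limma without the filter on low signal (0.0593).

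In limma, Sod1, Sod2 and Cat were higher and Hmox1 was lower in Patch than in MI, and the other 3 genes did not pass. Over all genes tested, 13.2% were called, 7.72% as higher and 5.45% as lower. The MI libraries enter both comparisons, so signs opposite to those of MI versus sham are no independent result.

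Sod1 was at 6153, 4702, 4762 and 6066 in P695, P697, P699 and P985. All 4 lay above the highest MI library, with P695 and P985 above sham as well. The Patch mean was 5421 ± 796 (SD, n = 4), a log2 difference of 1.04 from MI (SE 0.20, limma adjusted p 0.0150).

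Sod2 was at 9067, 7851, 6979 and 7463 in P695, P697, P699 and P985. The lowest of these, P699, was close to MI2 at 6425 but above it. The Patch mean was 7839.9 ± 893 (SD, n = 4), a log2 difference of 0.88 from MI (SE 0.21, limma adjusted p 0.0256).

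Cat was at 4697, 4389, 4234 and 4357 in P695, P697, P699 and P985. Its Patch values were tight, with an SD of 4.46% of the mean, where the MI libraries had 31.7%. The SD of its log2 values was 0.063 in Patch and 0.449 in MI. Over all genes tested, the median SD was also larger in MI, at 0.489 against 0.248 in Patch. The Patch mean was 4419 ± 197 (SD, n = 4), a log2 difference of 0.72 from MI (SE 0.20, limma adjusted p 0.0391).

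Hmox1 was at 267, 414, 546 and 302 in P695, P697, P699 and P985. P695 lay within the sham range, and P699, the highest, came nearest to the lowest MI value of 598. The Patch mean was 382 ± 126 (SD, n = 4), a log2 difference of -0.89 from MI (SE 0.23, limma adjusted p 0.0299). Hmox1 had the widest relative spread of the 7 genes in Patch, with an SD of 32.9% of the mean.

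Gclc was at 335, 332, 359 and 324 in P695, P697, P699 and P985, and the MI2 value of 337 fell inside this range. Its log2 difference from MI was -0.51 (SE 0.17, limma adjusted p 0.0732). Without MI2 it was -0.68 and passed (limma adjusted p 0.00339). The Patch SD, 4.41% of the mean, was no larger than the counting error of 5.62% at the depth of this gene.

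Nqo1 was at 352, 315, 399 and 465 in P695, P697, P699 and P985, and P697 lay below MI1 at 322. The log2 difference was 0.45 (SE 0.17, limma adjusted p 0.105). Nfe2l2 was at 1173, 1162, 1301 and 1196, with MI2 at 1205 inside that range, and differed from MI by -0.18 (SE 0.11, limma adjusted p 0.281), or by -0.28 without MI2 and P699 together (limma adjusted p 0.0903). With or without MI2, Nqo1 and Nfe2l2 did not pass in this comparison.

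**Figure D2:**
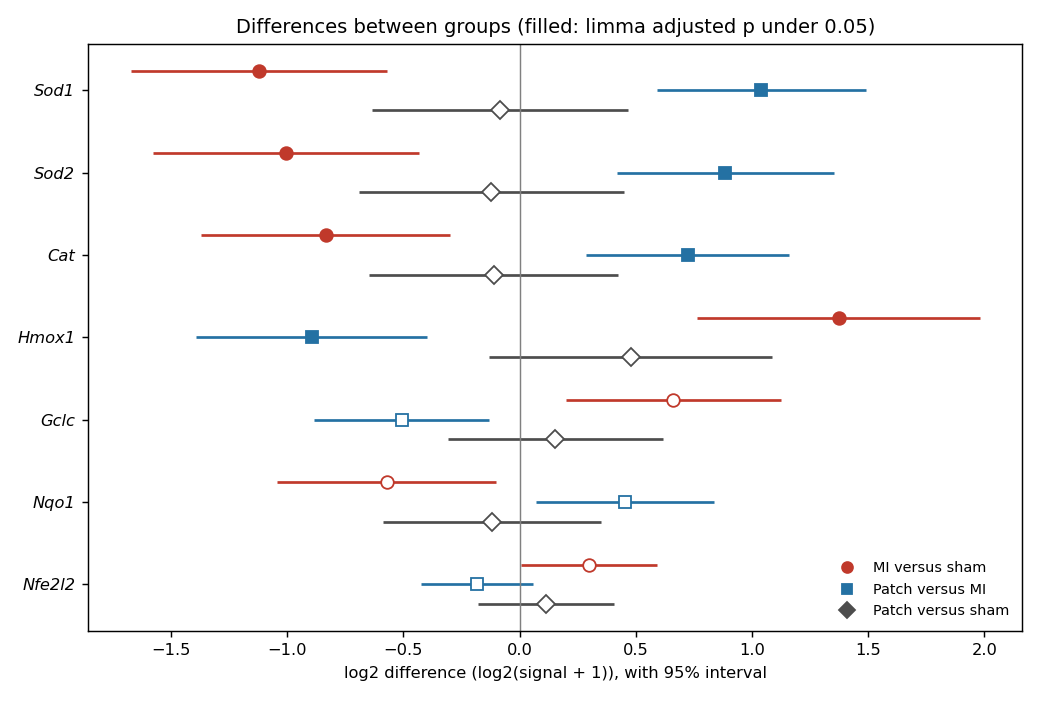
Log2 differences of the 7 genes in the 3 comparisons of MI, Patch and sham, with 95% intervals from limma, filled where the adjusted p was under 0.05. The 4 called genes, Sod1, Sod2, Cat and Hmox1, are filled in the comparisons with MI, and no gene is filled for Patch versus sham.

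Patch and MI did not overlap in 4 of the 7 genes, 3 higher and 1 lower in Patch. Of all genes tested, 17.6% did not overlap, 9.81% higher and 7.79% lower. Without MI2, 3 of the 7 genes were higher and 3 lower, since Gclc and Nfe2l2 no longer overlapped. The share over all genes without MI2 is not given here. The calls depended on single libraries. Without P695 no gene of the 7 was called (limma adjusted p 0.0593 to 0.115 for the 4), and without P985 none was either (0.0548 to 0.0967). The whole table fell to 209 and 292 called genes in those fits. Hmox1 and Sod2 also lost their calls without MI162 (0.0855 and 0.0748) or P697 (0.0612 and 0.0675), and Cat lost its call without any 1 library other than MI2 (0.0517 to 0.115), with only the MI and Patch libraries in the fit (0.0598), without the filter on low signal (0.0569) and in edgeR (0.0600).

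Between Patch and sham, no gene of the 7 passed in limma, and with all 10 libraries none had an unadjusted p under 0.05, the lowest being 0.112 for Hmox1. No gene of the whole table was called either, a share of 0%, with 524 genes at an unadjusted limma p under 0.05. That number depended on the fit. With only the Patch and sham libraries in it, 1449 of 16771 genes had an unadjusted limma p under 0.05, and again 0 were called. Neither edgeR nor DESeq2 called any of the 7. Patch and sham values overlapped in all 7 genes, where 18.5% of all genes tested did not overlap. Equality is not shown by this, because the intervals are wide. The intervals below share 1 estimate of spread with MI, where the median SD over all genes tested was 0.489, against 0.248 in Patch and 0.170 in sham. With only the Patch and sham libraries in the limma fit, they were -0.36 to 0.14 for Cat, -0.42 to 0.25 for Sod1 and -0.44 to 0.19 for Sod2. For Hmox1 the interval stayed wide in that fit, at -0.12 to 1.08. For Hmox1 the log2 difference was 0.48 (95% interval -0.13 to 1.09), so a level in Patch from 0.914 to 2.12 times that in sham was within it. For Sod1 the difference was -0.08 (-0.64 to 0.47), for Sod2 -0.12 (-0.69 to 0.45) and for Cat -0.11 (-0.65 to 0.42). Nfe2l2 differed by 0.11 (-0.18 to 0.41). Gclc differed by 0.15 (-0.31 to 0.62) and Nqo1 by -0.12 (-0.59 to 0.35), and the sign of each turned when 1 sham library was left out. Gclc was at -0.025 without sham1 and 0.33 without sham2, and Nqo1 at -0.35 and 0.12. Single libraries also moved the other differences by over 1.5 times. Hmox1 ranged from 0.29 (without P699) to 0.63 (without P695), where its 95% interval was 0.035 to 1.23 with an unadjusted limma p of 0.0399 and an adjusted p of 1. Sod1 ranged from -0.15 (without P695) to -0.020 (without P697), and Sod2 from -0.19 (without P695) to -0.068 (without P699). Cat was at -0.0097 without sham1 and -0.22 without sham2, and Nfe2l2 at 0.015 and 0.21.

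Likeness of the genes across the 10 libraries was measured as the root mean square distance between log2 profiles, each centred on its own mean, and serves as a description of libraries that share groups and scaling. Cat and Sod2 were the closest of the 21 pairs, at 0.11, and lay on the same side of their means in 10 of 10 libraries. Their ratio within a library, set to 1 at the sham mean, stayed between 0.92 and 1.24 over all 10 libraries. Each gene alone spanned a wider range, Cat from 41.9 to 107% of the sham mean and Sod2 from 37.7 to 107%. Nfe2l2 and Gclc came next, at 0.21, then Sod1 and Sod2, at 0.29.

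Sod1 did not keep step with Sod2 in every MI library. The ratio of Sod1 to Sod2 was 1.51 in MI1 and 0.743 to 0.803 in the other 3 MI libraries, against 0.968 and 1.03 in sham and 0.891 to 1.21 in Patch. MI1 had the lowest Sod2 and Cat of all libraries, while its Sod1 was among the higher MI values. Hmox1 and Sod1 were the least alike pair, at 1.18. The ratio of Hmox1 to Nfe2l2 was 2.13 ± 0.418 over the MI libraries (SD, n = 4) and 1.32 ± 0.377 over the Patch libraries (SD, n = 4), with 0.88 and 1.12 in the sham libraries.

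**Figure D3:**
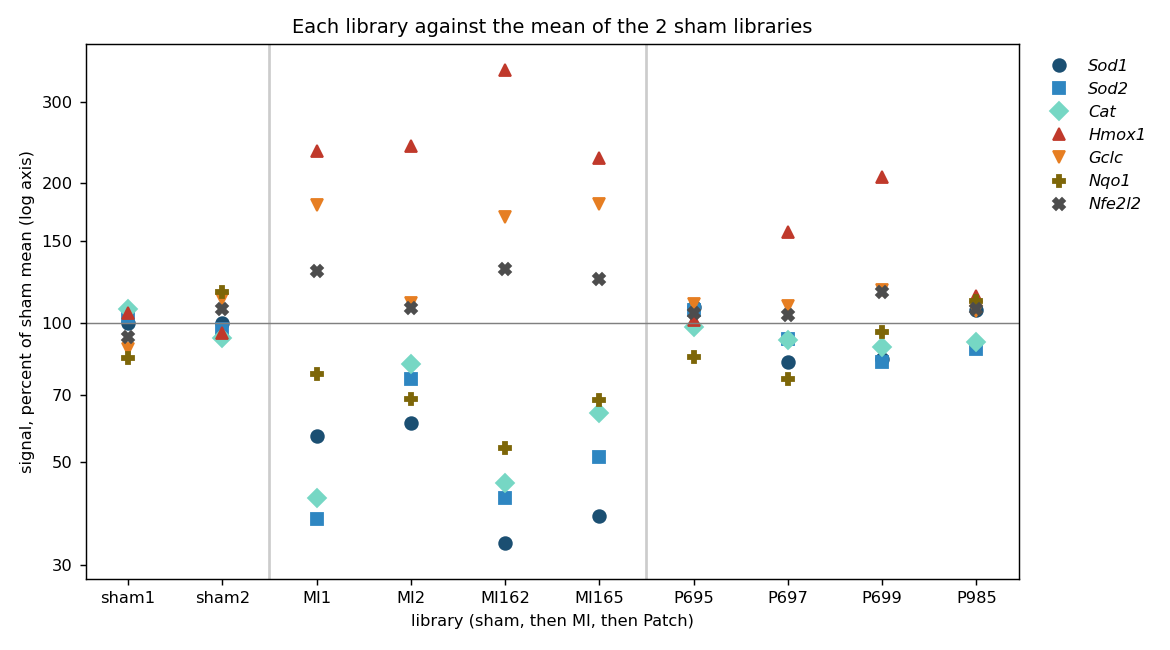
Signal of the 7 genes in each library, in percent of the sham mean (n = 2, log axis), in the order sham, MI and Patch. Sod1, Sod2 and Cat lie at 33.5 to 81.5% in the MI libraries and at 82.2 to 108% in Patch, and Hmox1 lies at 226 to 352% in MI and 101 to 207% in Patch.

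MI2 was not equally displaced in all genes. For Cat, Sod2, Gclc and Nfe2l2 it was the MI library nearest to the sham mean, and for Sod1 it was also the nearest, at 60.8%, with MI1 close by at 56.9%. For Hmox1 and Nqo1 other MI libraries were nearer. The 5474 genes at 0 in MI2 are given above, and the part of this library's quality in these positions was not tested. Without MI2, 6 of the 7 genes were called between MI and sham and 5 between Patch and MI, and without MI2 and P699 together 5 and 5; these 2 libraries were left out together only after the data had been seen. More of the whole table was called in these fits too: 29.1% and 28.2% of 17109 genes without MI2, and 28.5% and 28.4% of 17095 without both, against 15.4% and 13.2% with all libraries.

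Scaling did not turn any direction in the comparisons with MI. When each library was rescaled to the same total signal, which puts the median difference of all genes at 0.24 between MI and sham and at -0.17 between Patch and MI, Sod1 was at -0.88, Sod2 at -0.76, Cat at -0.59 and Hmox1 at 1.61 for MI versus sham. Cat then missed the threshold (limma adjusted p 0.0918), while Gclc at 0.90 and Nfe2l2 at 0.54 passed it (0.0242 and 0.0319). For Patch versus MI the same rescaling put Cat at 0.54, past the threshold no longer (limma adjusted p 0.0673), and Gclc at -0.69, now past it (0.0350). It also put Nfe2l2 at -0.36 (limma adjusted p 0.0659) and Nqo1 at 0.28 (0.315) in that comparison, both short of the threshold. Quantile normalization ended the calls of Cat and Sod2 in both comparisons (limma adjusted p 0.0962 and 0.0899 against sham, with Sod2 at -0.66, then 0.0714 and 0.0584 in Patch against MI). Over the 22 alternative settings, 0 changed the sign of any of the 7 genes in MI versus sham or Patch versus MI. Some of these settings could not change it. A different filter on low signal, a fit of only the 2 groups compared, or leaving out a library of the third group left the log2 difference as it was. The settings are therefore not 22 separate checks of direction.

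**Figure D4:**
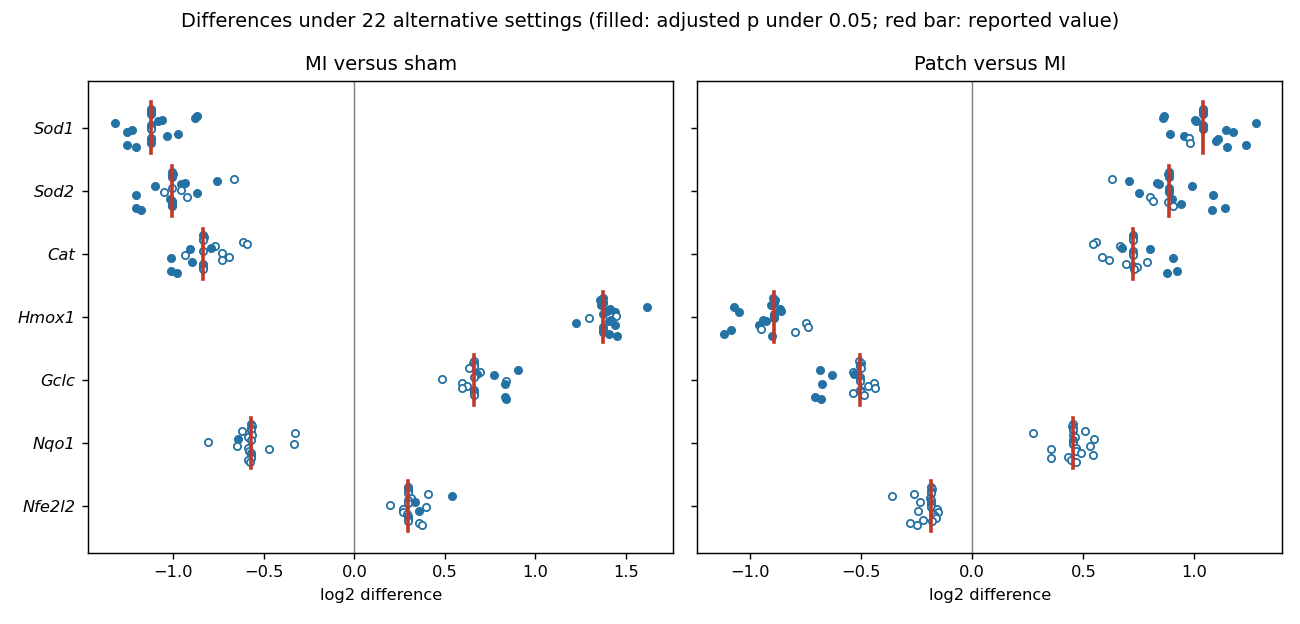
Log2 differences of the 7 genes under 22 alternative settings, with MI versus sham on the left and Patch versus MI on the right, filled where the adjusted p was under 0.05, with the reported value as a red bar. All points of a gene lie on the same side of 0, with Cat at -1.02 to -0.59 and Hmox1 at 1.23 to 1.61 for MI versus sham, while the calls vary with the setting.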

How the data were processed

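RNA was measured in rat heart by poly(A)-selected, random-primed sequencing, per the labels' protocols. The deposited table holds a normalized signal per Ensembl gene. HISAT2, SAMtools, featureCounts, DESeq2 and the build rn6 are named in the submitters' processing notes, with no versions or roles. Strand use, annotation and the treatment of shared reads were not given in the sources used here. Deposited signal values were whole multiples of 1 step per library: 100% came out whole within 0.1 read in each of the 10 libraries. The protocol names no molecular identifiers, so counting errors cover counting only.

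Here, the 17091 genes whose signal averaged at least 1 were tested with limma 3.58.1 (R 4.3.3; lmFit, contrasts.fit, eBayes with trend) on log2(signal + 1), all 3 groups in 1 fit, with Benjamini-Hochberg adjustment over all genes and a threshold of 0.05. Fold changes are on that log2 scale and understate low genes. edgeR 4.0.16 (quasi-likelihood) and DESeq2 1.42.0 on recovered reads were alternatives. The fits were also run on simulated counts, whose outcome is not given here. Python 3.11.15, numpy 2.4.6, pandas 2.3.3 and matplotlib 3.10.9 were used otherwise.

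The members and lists were chosen with earlier results of these data known. All 7 genes are named. Symbols come from the rule that chose them, since 0 IDs of the table matched the gene table used here. For that reason 7 lists of related genes, 7 marker lists and the search for genes with a like pattern outside the 7 were not analysed here. The design assumed 12 libraries; 2 columns were not used. Of the promoter motifs, TGACNNNGC was planned and the other 3 were added later.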

Additional observations from a re-analysis of the deposited data

Results flagged for a closer look

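Libraries were compared within 14 sets, the MI and the Patch libraries for each of the 7 genes, and in 2 of them a single library lay far out; by chance about 1 set in 20, or 0.7 sets, would show this. Hmox1 was at 929.059 in MI162, where the next highest MI library had 637. Its call for MI versus sham held without MI162, and its call for Patch versus MI was lost (log2 difference -0.75, limma adjusted p 0.0855).

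Gclc was at 337.344 in MI2, where the next lowest MI library had 517. In the limma fit of all 10 libraries the gene missed the threshold in both comparisons with MI, and without MI2 it passed in both (limma adjusted p 0.00276 and 0.00339). With MI2 kept it also passed in both in DESeq2 (adjusted p 0.0213 and 0.0275) and with total rescaling (limma, 0.0242 and 0.0350). It passed with sample weights as well (limma adjusted p 0.00335 and 0.00580), but that fit gave MI2 the lowest weight of the 10 libraries, 0.193 against 0.385 to 2.25 in the others.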

How the results depend on the processing

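No paired analysis was possible because 6 of the 10 column names carry numbers that match no replicate number of the labels, and those in sham1, sham2, MI1 and MI2 were therefore not read as replicate numbers either. The fits without MI2 and P699 together and edgeR without MI2 were added with the data in view. The number of the 7 genes called for MI versus sham was 4, and became 2 with quantile normalization, 7 with sample weights, 1 with only the 2 groups compared, and 0 to 6 when 1 library was left out (0 without either sham library, 6 without MI2). For Patch versus MI it was 4, and became 2 with quantile normalization and 0 to 5 when 1 library was left out (0 without P695 or P985, 5 without MI2). For Patch versus sham it stayed at 0 in the alternatives run.

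Over the whole table, MI versus sham gave 2636 genes, against 5679 with sample weights (33.2% of 17091), 599 with only the 2 groups, 4867 without MI2 and P699 together, 4687 in edgeR without MI2, and 7 (without sham1) to 4979 (without MI2) when 1 library was left out. Patch versus MI gave 2251, against 3701 in DESeq2, 5383 with sample weights (31.5%), 1437 with only the 2 groups, 4856 without MI2 and P699 together, 4643 in edgeR without MI2, and 209 (without P695) to 4821 (without MI2) when 1 library was left out. Patch versus sham gave 0, against 15 in DESeq2, 10 with sample weights and 0 to 2 (without P695) when 1 library was left out. Quantile normalization called 2321 genes (13.6% of 17091) between MI and sham, and 2181 (12.8%) between Patch and MI. Without it these shares were 15.4% and 13.2%. Fits without a library or group use fewer samples. Otherwise the cause of these changes was not tested. Of the calls between MI and sham, the share that was higher went from 47.3% to 73.5% with total rescaling and to 73% with only the 2 groups; for Patch versus MI total rescaling gave 30.2%, against 58.6%.

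In the comparisons with MI, 22 alternatives were run per gene. For MI versus sham, Hmox1 was called in 20, Sod1 in 19, Sod2 in 17, Cat in 9, Gclc in 7, Nfe2l2 in 3 and Nqo1 in 1. For Patch versus MI, Sod1 was called in 20, Hmox1 in 18, Sod2 in 17, Cat in 8, Gclc in 6, and Nfe2l2 and Nqo1 in 0. Counting error was largest for Hmox1 in sham, at 6.48% of the value on average.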
